A study of Mus musculus with 2 samples.

Results

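The late nondividing erythroid set was chosen to hold red cell precursors rich in hemoglobin RNA, with no counted transcript of the cell division genes Mki67 (a proliferation marker) and Top2a (a DNA topoisomerase). Members were chosen by their own counts in the deposited matrices, as cell barcodes with at least 500 genes and at least 4000 UMIs (unique molecular identifiers, each standing for 1 captured transcript molecule). At most 10% of UMIs could be mitochondrial, and at least 20% had to come from the adult globin genes Hba-a1, Hba-a2, Hbb-bs and Hbb-bt. The remaining limits were at least 3 UMIs of Alas2 plus Slc4a1 and 0 UMIs of Mki67 plus Top2a. By this rule 200 of 13380 deposited barcodes were members: 133 among the 7671 barcodes of PBS and 67 among the 5709 of CFA. The study compared mouse temporomandibular joints (TMJ, the jaw joints) after injection of complete Freund's adjuvant (CFA), an oil suspension of killed mycobacteria that inflames a joint, or of phosphate-buffered saline (PBS). Both groups were WT C57BL/6 mice, female and injected at 8 weeks of age (the labels give 8 to 10 weeks), each TMJ receiving 10 µL (CFA was 5 mg/mL) and collection following 3 weeks afterwards. Tissue of 3 perfused mice per group was pooled, digested, partly depleted of CD45+ cells on beads and sequenced as 1 droplet library, so neither condition had replicates. Deposited totals were 51146169 UMIs for PBS and 53517206 for CFA.

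In their last divisions, red cell precursors fill with hemoglobin, then leave the cell cycle, expel the nucleus and clear their organelles. Most other transcripts fall away in that time, so hemoglobin takes up more and more of the RNA that is left. A small group of genes needed to the end keeps its transcripts, among them Alas2, the enzyme that starts heme synthesis in red cells, and Bpgm, which makes the small molecule that tunes how hemoglobin releases oxygen.

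Members were 2.28% (1.91 to 2.69%) of the 5845 PBS barcodes that passed the limits on genes and mitochondrial UMIs, and 1.54% (1.19 to 1.95%) of the 4353 CFA barcodes. The CFA to PBS ratio of these shares was 0.676 (0.497 to 0.914). All intervals are exact 95% intervals, Clopper-Pearson for shares, Poisson for levels and conditional binomial for ratios, and they cover counting error only. Among erythroid barcodes, meaning those that met every limit but the one on Mki67 and Top2a, members made up 24.9% of 534 in PBS and 25% of 268 in CFA, with a ratio of 1.004 (0.737 to 1.36). The members' lower share in CFA was therefore shared by dividing erythroid cells, of which PBS held 401 and CFA 201. Of the barcodes with at least 4000 UMIs, 4.43% of 3005 and 2.23% of 3011 were members, a ratio of 0.503 (0.369 to 0.679). Hemoglobin made up 20.7% of all PBS UMIs and 7.89% of all CFA UMIs, and the members carried 8.55% and 10.0% of those hemoglobin UMIs. The libraries had 10 barcode sequences in common, 0 of them in the member sets of both, and 1 member's barcode occurred in the other library.

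The values used by the rule are a description of how the cells were picked. By hemoglobin, UMIs and Alas2 plus Slc4a1 few members sat close to the limits. There were 6 PBS and 2 CFA members with 20 to 25% hemoglobin, while 6 and 0 barcodes with 15 to 20% met all other limits. Within 1000 UMIs of the limit of 4000 there were 3 and 1 members above it and 6 and 1 barcodes below it. Alas2 plus Slc4a1 came to 3 to 5 UMIs in 2 and 0 members, and 4 and 0 barcodes with 0 to 2 met all other limits. The limit of 500 genes cut deepest. Members with under 600 genes numbered 20 and 8, and 29 and 15 barcodes with 400 genes or more but under 500 met every other limit. In all, 738 PBS and 320 CFA barcodes missed the set by gene number alone, with medians of 222 and 261.5 genes and of 93.2% and 92.2% hemoglobin. Members were thus only the 15.3% and 17.3% richest in genes of 871 and 387 such barcodes. With no gene limit, an alternative chosen after the data were seen, these were 11.4% and 6.78% of deposited barcodes, a ratio of 0.597 (0.528 to 0.674), and 64.1% and 63.3% of erythroid ones, 0.988 (0.874 to 1.11). The barcodes outside had 15.6 Bpgm UMIs per cell in either library but 0.598 and 0.731 of Tmcc2 and 0.759 and 0.869 of Xpo7. The results below were measured at the gene-rich end, and 11 genes chosen after their values were seen were also counted outside it. In division genes too, 53 PBS and 40 CFA barcodes had exactly 1 UMI of Mki67 plus Top2a, so the line between nondividing and dividing ran through a well filled range. Over 10 cell cycle genes, 32 PBS and 14 CFA members had 0 UMIs. Most of the remainder came from Ube2c, a ubiquitin-conjugating enzyme of mitosis, which had a UMI in 91 and 49 members. Without it, 102 of 133 and 48 of 67 members had 0 UMIs over the other 9 genes. Comparison cells, which are kept barcodes with under 20% hemoglobin and no Alas2 or Slc4a1 UMI, had a Ube2c UMI in 12.5% of 3500 in PBS and 5.67% of 3967 in CFA, at median depths of 4719.5 and 6449 UMIs against 9711 and 8700 in members.

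The members' label was checked against Hba-a1, Hbb-bs, Alas2, Bpgm and Tmcc2. Hba-a1 and Hbb-bs (the most used alpha and beta globin genes) and Alas2 were found in all 200 members, which the rule favors. Bpgm was not used by the rule and was counted in 132 of the 133 members in PBS and all 67 in CFA, against 14.8% and 9.30% of comparison cells. Its level, in counts per 1000000 UMIs with hemoglobin left out of the total (CPM), was 2778 (2656 to 2904) in PBS and 3403 (3193 to 3624) in CFA. With hemoglobin in the total it was 1213 and 1370 CPM. Alas2 stood at 2391 and 3068 CPM, or 1044 and 1235 with hemoglobin counted. Tmcc2, a membrane protein gene of late red cell precursors, was at 1865 and 2959 CPM, or 814 and 1192 with hemoglobin counted. It had a UMI in 67.7% and 85.1% of members and in 14.1% and 12.6% of comparison cells. After thinning every cell to 400 UMIs outside hemoglobin, Tmcc2 was seen in 54.1% and 68.7% of members and Bpgm in 75.2% and 77.6%. Car2, a carbonic anhydrase used by the study as an erythroid marker, was at 2280 and 4388 CPM in members and 135 and 34.3 CPM in comparison cells. All markers were thus present, but Tmcc2 was missing from many cells, and of the members under 50% hemoglobin it was found in 13 of 38 in PBS and 5 of 9 in CFA.

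**Figure D1:**
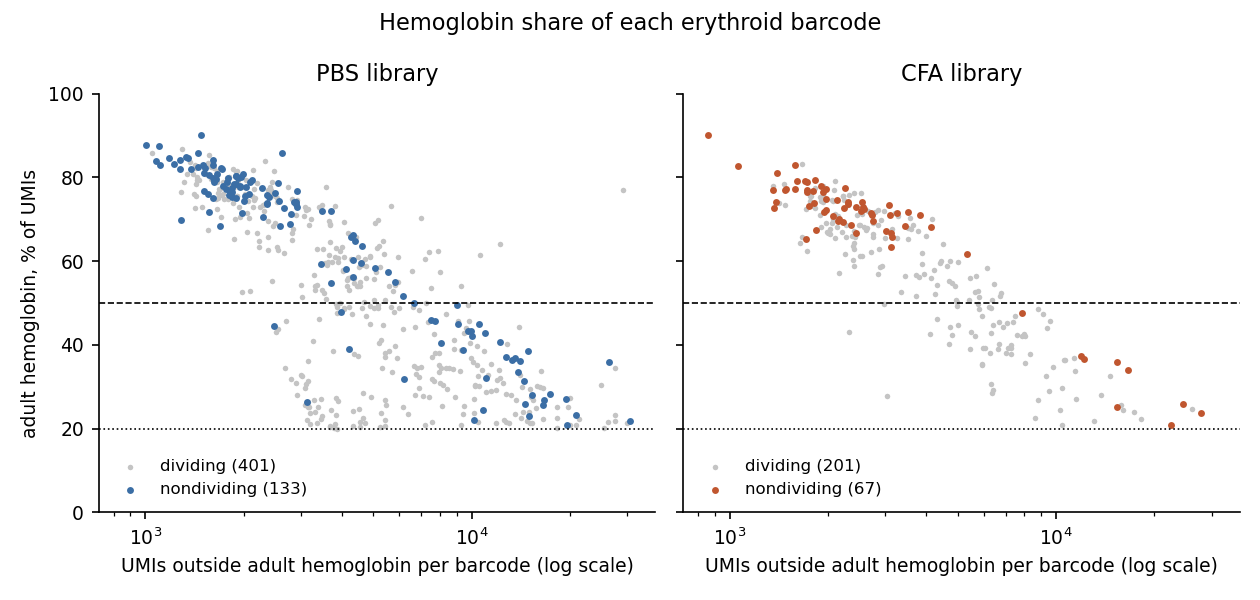
Adult hemoglobin as a percent of UMIs (vertical) against UMIs outside hemoglobin per barcode (horizontal, log scale) for each nondividing (colored) and dividing (gray) erythroid barcode, with dotted lines at 20% and dashed lines at 50%. The 38 PBS and 9 CFA members under 50% have more UMIs outside hemoglobin than most members above it, with medians of 11642 and 15392 against 1920 and 2143.

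Hemoglobin made up 20.9 to 90% of a PBS member's UMIs and 20.9 to 90.1% of a CFA member's. There were 95 PBS and 58 CFA members at or over 50%, and under it there were 38 (28.6%) and 9 (13.4%). The CFA members left a gap, with none between 47.6 and 61.7%. Members at or over 50% were 1.63% (1.32 to 1.98%) of kept PBS and 1.33% (1.01 to 1.72%) of kept CFA barcodes, a ratio of 0.820 (0.581 to 1.15). Of kept barcodes a difference in the share of these cells was therefore not detectable at this depth. Of barcodes with at least 4000 UMIs the ratio was 0.609 (0.432 to 0.853), of erythroid barcodes 1.22 (0.862 to 1.70) and, with no gene limit, of deposited barcodes 0.610 (0.539 to 0.689), so it depends on the barcodes divided by. Members under 50% carried a median of 6544.5 hemoglobin UMIs in PBS and 7131 in CFA, against 6848 and 6181.5 in members at or over 50%, lower in PBS and higher in CFA. The rest differed more, with median gene numbers of 3719 and 4313 per cell against 720 and 768.5. Ribosomal protein genes took a median 8.82% and 8.84% of UMIs outside hemoglobin under 50%, against 2.56% and 2.22% at or over it and 7.87% and 5.44% in comparison cells. Whether members under 50% are single cells, doublets or other cells with hemoglobin RNA around them was not tested. The members under 50% therefore held 67.8% of the UMIs outside hemoglobin in PBS and 53.9% in CFA, so sums over all members lean on them and more so in PBS. For that reason the results below are given for members at or over 50% beside all members. This use of the 50% line for the gene lists, the rankings and the dividing cells was added after the data were seen.

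**Figure D2:**
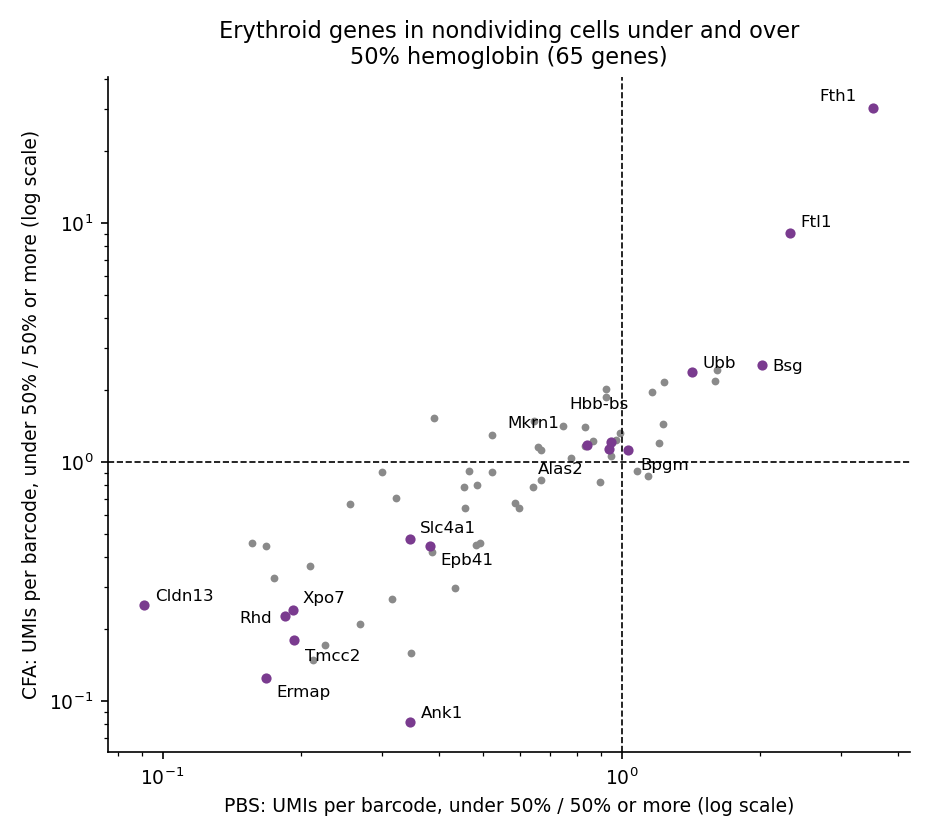
UMIs per barcode in members under 50% hemoglobin divided by UMIs per barcode in members at or over 50%, PBS (horizontal) against CFA (vertical), both on log scales, for the 61 erythroid list genes with at least 1 UMI per cell and the 4 adult globin genes. Alas2, Bpgm and Mkrn1 lie near 1 in both libraries, and Tmcc2, Xpo7 and Rhd lie below 0.5.

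Counting UMIs per cell, with no scaling to a total, split the erythroid genes of the members into groups that did and did not go with hemoglobin. Alas2 averaged 12.8 UMIs per cell at or over 50% and 12 under it in PBS, a ratio of 0.937 (0.840 to 1.04), and 12.9 and 14.6 in CFA, a ratio of 1.13 (0.931 to 1.36). Bpgm averaged 14.5 and 15 in PBS and 14.3 and 16.1 in CFA. Ube2l6, the enzyme that conjugates the ubiquitin-like Isg15, averaged 8.4 and 8.34 in PBS and 9.40 and 12.4 in CFA. Tmcc2 differed more across the 50% line, averaging 12.8 against 2.47 in PBS, a ratio of 0.194 (0.155 to 0.239), and 14.2 against 2.56 in CFA, a ratio of 0.180 (0.113 to 0.272). Xpo7, a nuclear export receptor needed for chromatin condensation, went from 18.6 to 3.58 and from 22.1 to 5.33. The blood group gene Rhd went from 3.27 to 0.605 and from 2.95 to 0.667. For Slc4a1, the anion exchanger of the red cell membrane, the averages were 6.55 against 2.26 and 7.67 against 3.67, although the rule itself asks for Alas2 plus Slc4a1, so the counts of these 2 genes in part describe the rule. Barcodes under 50% held similar counts of Bpgm and fewer of Tmcc2, Xpo7 and Rhd.

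Of 130 genes in the erythroid lists, 61 had at least 1 UMI per cell in members at or over 50% in both libraries. Being chosen by their level at or over 50%, they lean toward low ratios of under 50% to at or over 50%, so no summary over them is given. Ratios below 0.5 in both libraries were found for the membrane genes Ank1, Epb41, Epb42, Ermap, Kel, Rhag and Tmod1 and the transferrin receptor gene Tfrc. At or above 0.5 in both were Fech (the last heme enzyme), Slc25a37 (the mitochondrial iron importer), Bnip3l (a receptor for mitochondrial clearance), Mkrn1 (a ubiquitin ligase) and Ubb (ubiquitin). The ferritin genes Fth1 and Ftl1, which store iron in many cell types, rose instead: Fth1 from 12.7 to 45.1 UMIs per cell in PBS and from 15.6 to 473 in CFA. The CFA mean under 50% is over 9 members, 1 of which had the iron list at 5% or more of its UMIs outside hemoglobin. As given below, the Fth1 difference between the libraries over all members shrank without the highest barcode of each. Comparison cells had 3244 and 20660 CPM of Fth1. Members under 50% had 3603 and 27630 CPM, against 5366 and 6847 CPM at or over it. By CPM Fth1 was thus lower under 50% in PBS and higher in CFA, and the source of the rise was not tested. The per-cell comparison was chosen after the data were seen, and the groups it compares were cut by the hemoglobin share.

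Along the hemoglobin share the PBS members fell into 25, 23, 57 and 28 cells at 20 to 40, 40 to 60, 60 to 80 and over 80%, and their median gene numbers were 4138, 2755, 761 and 552.5. Bpgm went through 972, 2155, 5972 and 10552 CPM and Alas2 through 780, 1694, 5733 and 8314 CPM. Xpo7 had 343, 174, 9478 and 11447 CPM. Tmcc2 had 233, 74.7, 6533 and 7914 CPM. CFA gave Bpgm values of 916, 1404, 6072 and 11628 CPM over 8, 1, 54 and 4 cells. Xpo7 had 157, 3190, 9848 and 5508 CPM there and Tmcc2 had 47.8, 2042, 6340 and 3672 CPM. In CFA these 2 genes were thus lower over 80% than at 60 to 80%. The CFA bands of 8, 1 and 4 cells are thin. Bands were cut on the hemoglobin share and CPM leaves hemoglobin out of the total, so a rise in CPM along them goes with the cut.

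Lists of marker genes for 13 other cell types were summed in the members, and 12 of them are given here, since beads, droplets and free RNA can bring other cells' transcripts into a barcode. At 5% or more of UMIs outside hemoglobin, such a list was found in 8 PBS and 0 CFA members, and 7 of those 8 were under 50% hemoglobin. Fibroblast markers (6 genes, none at 0 in all members) summed to 20720 CPM in PBS members under 50%, led by Col1a2, against 1994 CPM at or over 50%, led by Col3a1 with 79.6% of its UMIs in 1 barcode. In CFA the sums were 7264 and 242 CPM, both led by Col3a1, with 1 gene at 0 in the members at or over 50%. Neutrophil markers (11 genes) came to 14584 CPM under 50% in PBS, led by S100a8, and 311 CPM in CFA, led by Lcn2. At or over 50% they were 514 and 1333 CPM, led by S100a9, with 2 genes at 0 in each library. Osteoblast markers (6 genes), led by Col1a1, were at 8296 and 1232 CPM under 50% with 0 and 3 genes at 0, and at 731 and 227 CPM at or over it with 1 and 2 at 0. In comparison cells of PBS the fibroblast and neutrophil lists were at 12290 and 7453 CPM, under the members below 50%, and in CFA at 6422 and 17757 CPM, the second far above those members. Of the PBS S100a8 UMIs 81.8% were in 1 member. These sums thus lean on few cells, and their part in the differences between the member groups was not tested.

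Macrophage marker sums were higher in CFA, at or over 50% through Lyz2. The 13 monocyte and macrophage markers summed to 177 CPM in PBS and 1128 CPM in CFA members at or over 50%, led by C1qb and Lyz2 with 3 and 7 genes at 0, and to 587 and 6596 CPM under 50%. The lysozyme gene Lyz2 alone was at 13.3 and 985 CPM at or over 50%, with a UMI in 3 of 95 and 48 of 58 cells. Comparison cells had 303 and 9203 CPM of Lyz2, with a UMI in 13.5% and 79.4% of cells. Lyz2 in the members therefore followed its level in the comparison cells, while 7 of the 13 markers were at 0 in CFA. B cell markers (9 genes), led by Ebf1, were at 1812 and 515 CPM at or over 50% with 3 and 5 genes at 0, and mural cell markers (5 genes) at 1001, led by Rgs5, and 15.1 CPM, led by Tagln, with 0 and 4 genes at 0. Endothelial markers (6 genes, led by Flt1) were at 1077 and 1325 CPM. At or over 60% they were at 488 and 1325 CPM, with 3 of 6 genes past 2-fold and higher in CFA, against 11.8% of all genes. At or over 50% T and NK cell markers (7 genes, led by Ccl5) were at 310 and 45.4 CPM, with 69 of the 70 PBS UMIs in 10 members at 50 to 60%. Chondrocyte markers (5 genes) were at 75.3 and 68.2 CPM. Blood progenitor (5 genes), megakaryocyte and platelet (5 genes), and mast cell and basophil markers (5 genes) were at 44.3, 17.7 and 8.86 CPM in PBS and 53.0, 22.7 and 7.57 CPM in CFA. Their part in the values of these members was not tested.

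**Figure D3:**
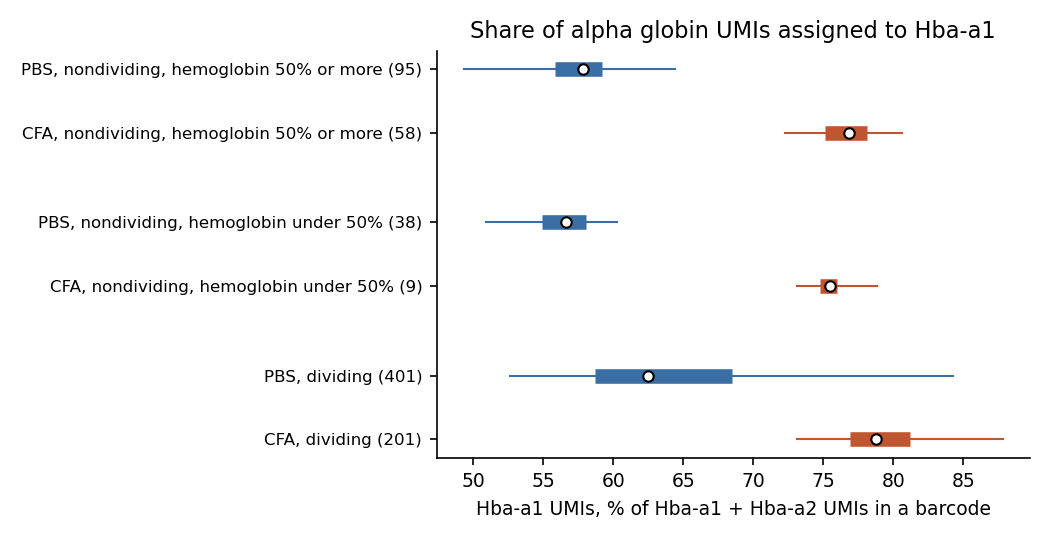
Hba-a1 UMIs as a percent of Hba-a1 plus Hba-a2 UMIs in each barcode, by library and set, with the number of barcodes in parentheses. Lines span the lowest to the highest barcode, boxes the quartiles and circles mark medians, and the nondividing PBS barcodes (49.3 to 64.4%) and CFA barcodes (72.2 to 80.6%) do not overlap.

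The 2 alpha globin genes of the adult cluster, Hba-a1 (11:32283511-32284465, plus strand) and Hba-a2 (11:32296489-32297298, plus strand) of GRCm38, split their UMIs differently in the libraries. Hba-a1 made up 57.1% (57 to 57.3%) of the members' alpha globin UMIs in PBS and 76.5% (76.3 to 76.7%) in CFA. Single members ranged from 49.3 to 64.4% in PBS and from 72.2 to 80.6% in CFA, so no member of either library had a value found in the other. The share was alike at or over 50% hemoglobin (57.4 and 76.6%) and under it (56.4 and 75.7%). Dividing cells had 62.8 and 78.9%, comparison cells 59 and 73%, and deposited barcodes outside the kept ones 55.9 and 75.6%. The difference was thus one of the whole library and not of the members. Within each library the members had a lower share than the dividing cells. The transcripts of Hba-a1 and Hba-a2 match at 537 bases, with an identical run of 415 in lengths of 699 and 554, so the assignment of reads between them is uncertain. Pooling of 3 mice, injection and library cannot be told apart here.

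The beta globins differed less between the libraries. Hbb-bs (7:103826534-103828096, minus strand) was 77.4% of the Hbb-bs plus Hbb-bt UMIs of PBS members and 80.7% of those of CFA members, again with read assignment uncertain between near copies. The beta to alpha ratio was 1.74 and 1.90 over summed UMIs, with cell medians of 1.73 and 1.92. Embryonic globins Hbb-y, Hbb-bh1, Hbb-bh2 and Hba-x had 0 UMIs in all members, and taking 3 cells of the total as the upper limit gives 2.26% of PBS and 4.48% of CFA members with a UMI, which does not limit how many hold the transcript. The minor alpha-like gene Hbq1a had a UMI in 24 of 133 PBS members (18.0%, 11.9 to 25.6%) and 2 of 67 CFA members (2.99%, 0.364 to 10.4%). Its near copy Hbq1b had one in 67 of 133 (50.4%) and 44 of 67 (65.7%). At or over 50% hemoglobin Hbq1a was at 102 CPM in PBS and 0 in CFA, at least 4.49-fold lower against a floor of 3 counts. Hbq1b stood at 492 and 538 CPM, so the pair changed unequally, as Hba-a1 and Hba-a2 did. Hbq1a and Hbq1b share 533 transcript bases, and how reads were split between them is uncertain too.

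What sets nondividing apart from dividing erythroid cells was read within each library. A gene counted as past the fold when it was past 2-fold the same way in both libraries, after adding 10 CPM to both levels, among genes with a mean of at least 50 CPM. Of 3554 genes 458 were higher in the members, 12.9% of the genes, and 455 were lower, 12.8%. Among cells of both sets with 1000 to 4000 UMIs outside hemoglobin only 37 were higher and 130 lower. With hemoglobin left in the total the split was 99 higher and 307 lower. Before the 10 CPM are added, that total lowers every ratio by 0.24 on the log2 scale in both libraries (by 0.32 and 0.37 at or over 50%), and with them the change differs by gene. With both sets held to at least 50% hemoglobin, 252 of 2559 genes were higher (9.85%) and 295 lower (11.5%). There the median log2 ratio over all genes was -0.10 in PBS and -0.14 in CFA. Cell cycle genes moved with the Mki67 and Top2a limit: all 20 measured G2 and M phase genes were lower at or over 50%, with medians of -4.21 and -3.75. Of 4 measured S phase genes 3 were lower, namely Rrm1, Rrm2 and Slbp. Since the limit chose cells by 2 genes of the cycle, these counts describe the cut.

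**Figure D4:**
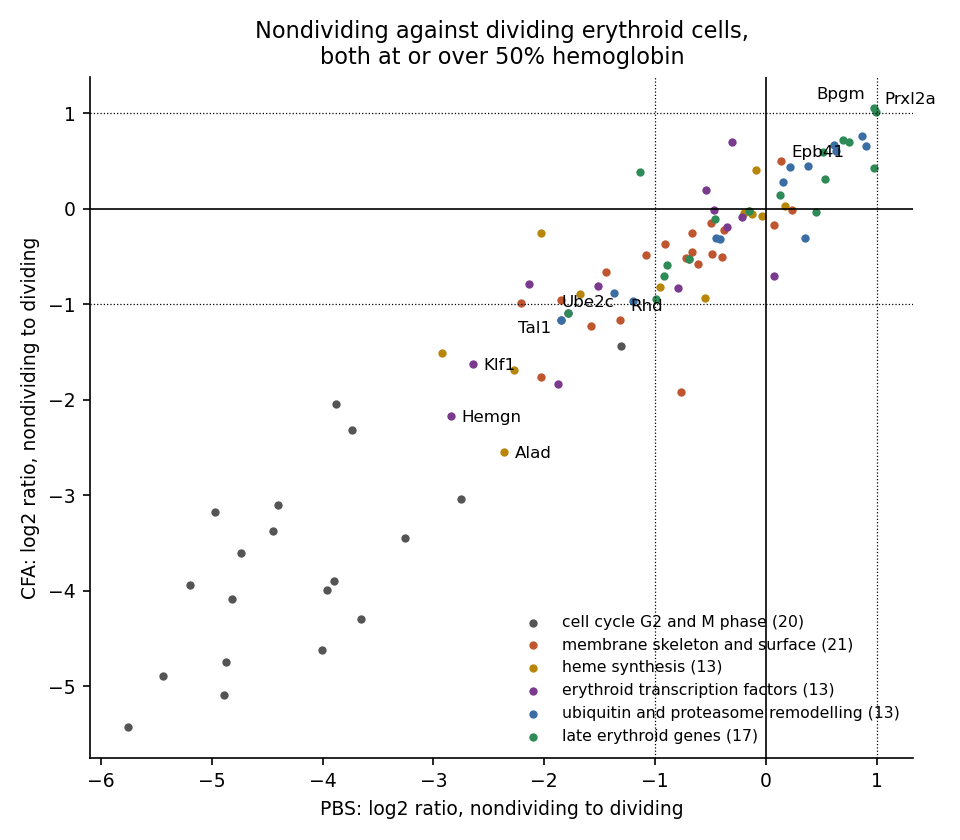
Log2 ratio of nondividing to dividing erythroid cells, both at or over 50% hemoglobin, in PBS (horizontal) and CFA (vertical) for 6 gene lists, from CPM without hemoglobin, with dotted lines at 2-fold. Cell cycle genes lie at the lower left, and Bpgm and Prxl2a are at 0.98 and 0.995 in PBS and 1.06 and 1.01 in CFA.

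Bpgm was raised in the members. At or over 50% hemoglobin it was at 6106 CPM in PBS members against 3089 in dividing cells and at 6279 against 3015 in CFA, log2 ratios of 0.98 and 1.06. Prxl2a, a gene for a redox-active peroxiredoxin-like protein, was at 1529 against 762 CPM and 2166 against 1071 CPM, ratios of 0.995 and 1.01. With hemoglobin in the total the ratios were smaller, 0.66 and 0.68 for Bpgm and 0.66 and 0.63 for Prxl2a. With both sets held to 60% hemoglobin, Bpgm was at 0.74 and 0.49 and Prxl2a at 0.84 and 0.52. Per cell, members had 14.5 and 14.3 Bpgm UMIs against 10.3 and 9.18 in dividing cells, ratios of 1.40 (1.31 to 1.5) and 1.56 (1.42 to 1.70). Alas2, a gene of the rule, was higher in members by CPM, at 0.38 and 0.40 on the log2 scale, but had 12.8 and 12.9 UMIs per cell against 13.9 and 13, ratios of 0.925 (0.864 to 0.99) and 0.991 (0.908 to 1.08). One PBS dividing barcode with 125348 UMIs is in these averages.

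Some ubiquitin and organelle clearance genes had more UMIs per cell in members. Ubb, a ubiquitin gene, had 32.4 and 30.6 UMIs per member at or over 50% and 25 and 24 per dividing cell. Ube2h, a ubiquitin-conjugating enzyme of red cell maturation, had 10.3 and 13.1 against 7.77 and 11.1. For Bnip3l the values were 4.86 and 7.47 against 3.86 and 6.19, and for Mkrn1 15.6 and 16.2 against 13.6 and 13.1. Xpo7 averaged 18.6 and 22.1 against 16.1 and 19.8. None of these passed 2-fold in CPM, and the median log2 ratio of the 13 measured ubiquitin genes was 0.22 in PBS and 0.28 in CFA, with 8 and 7 genes above 0 and Ube2c the only gene past the fold and lower. Organelle clearance genes had medians of 0.26 and 0.19 over 17 genes, with 13 above 0 and Kmt5a (a histone methyltransferase gene) past the fold and lower, against -0.10 and -0.14 over all genes. With both sets at or over 60% the medians were 0.15 and -0.04 for the ubiquitin list and 0.26 and -0.05 for organelle clearance. Small gains in UMIs per cell were therefore seen for some of these genes in both libraries.

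Of 21 measured membrane genes 3 were past the fold and lower than in dividing cells at or over 50% in both libraries, near the 11.5% of all genes, namely Dmtn, Icam4 and Rhd, and 0 were higher. Rhd had 3.27 and 2.95 UMIs per member against 11.5 and 8.86 per dividing cell. Short of the fold in CFA, Sptb and Ank1, which encode beta spectrin and the ankyrin that ties it to the membrane, had 1.31 and 1.72 against 6.72 and 4.48, and 1.82 and 2.71 against 7.05 and 5.74. Epb41, encoding the skeleton protein 4.1, was an exception, with 24.3 against 22.9 per cell in CFA but 14.8 against 19.0 in PBS. In heme synthesis 3 of 13 genes were lower, Alad, Slc25a38 and Tmem14c, which act early in the pathway or move its substrates. Alad was at 186 and 318 CPM against 997 and 1910. Of 13 transcription factors 4 were lower, Hemgn, Klf1, Tal1 and Zfpm1, and Klf1 fell from 494 to 70.9 CPM in PBS and from 417 to 129 CPM in CFA. With both sets at or over 60% hemoglobin 3 of 21 membrane genes, 2 of 12 heme genes and 3 of 13 transcription factors were lower, against 5.30% of all genes. Fech (2185 and 2636 against 2431 and 2681 CPM) was near the dividing level in CPM. Per cell it had 5.19 and 6 UMIs against 8.14 and 8.16, so that nearness holds within the smaller pool of RNA only.

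At or over 50% hemoglobin B cell markers were at 1812 and 515 CPM in members, against 299 and 45.5 CPM in dividing cells. Their only measured gene, Ebf1, was past the fold, with log2 ratios of 2.42 and 3.37. Of the lists for other cells, endothelial markers had the most genes past the fold in this comparison. All 5 measured genes, Cdh5, Emcn, Flt1, Kdr and Pecam1, were past the fold and higher in members at or over 50% in both libraries, against 9.85% of all genes, with medians of 2.77 and 2.90, although 64.7% of the CFA Cdh5 UMIs came from 1 barcode. The 6 endothelial genes summed to 1077 and 1325 CPM in members, 131 and 65.7 CPM in dividing cells and 2016 and 1319 CPM in comparison cells. Of the 243 PBS UMIs 157 were in the 10 members at 50 to 60%, and at or over 60% the sum was 488 CPM against 172 in dividing cells. None of the 6 genes was at 0 in the members, and this list took the highest share among the 13 lists in 9 PBS and 6 CFA members at or over 50%, fewer than the neutrophil (37 and 22) list, while fibroblast markers led in 20 and 3 and macrophage markers in 1 and 20. By rank, the genes most raised in members at or over 50% were Mecom (a transcription factor gene), Ccdc85a (a coiled-coil protein gene) and Plcb1 (a phospholipase gene), at 4.04, 3.66 and 3.46 in the library with the smaller ratio. All 3 were under the comparison cells in PBS. Of genes at or above the comparison cells in both libraries, a limit added after the data were seen and set for the higher genes only, the first were Bmp6 (a growth factor gene), with ratios of 3.35 and 3.41, and Rgl1 (a signalling exchange factor), with 2.28 and 2. Bmp6 had UMIs in 7 of 95 and 6 of 58 members and stood at 127 and 156 CPM in comparison cells, against 137 and 310 CPM in members. Endothelial transcripts thus went with this ranking, and their part in it was not tested. Over all members the ranking led with Ecrg4, Comp and Lyz2 and ended with Hist1h1b, Birc5, Knl1 and Hist1h2ap, genes of connective tissue, macrophages and dividing cells. In CFA, 1 barcode held all Ecrg4 UMIs and 96.9% of those of Comp.

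CFA and PBS were then compared within the members. Over all members 289 of 3575 genes were past 2-fold and higher in CFA (8.08% of genes) and 363 lower (10.2%), with a median log2 ratio of -0.05. With hemoglobin in the total they were 114 and 156. At or over 50% hemoglobin 180 of 2542 were higher (7.08%) and 375 lower (14.8%), with a median of -0.03. The 10 PBS members at 50 to 60%, a range with 0 CFA members, held 21.9% of the PBS UMIs outside hemoglobin. At or over 60%, an alternative chosen after the data were seen with 85 and 58 members, 272 of 2312 genes were higher (11.8%) and 178 lower (7.70%), with a median of 0.07. Many ratios of erythroid genes were lower there, so they are given for this range too. Of the genes past the fold in the first 2 selections, 72 higher and 108 lower ones were the same in both selections. Before the 10 CPM are added, counting hemoglobin in the total shifts CFA to PBS ratios by -0.12 over all members and by 0.08 at or over 50%, where hemoglobin was 74.6% of UMIs in PBS and 73.0% in CFA. The core markers were close at or over 50%. Alas2 was at 5401 and 5658 CPM, a ratio of 1.05 (0.955 to 1.15), Bpgm at 6106 and 6279 CPM, 1.03 (0.942 to 1.12), and Ubb at 13621 and 13428 CPM, 0.986 (0.929 to 1.05). Tmcc2 was at 5375 and 6241 CPM, 1.16 (1.06 to 1.27). At or over 60% all 4 were lower in CFA, with ratios of 0.890 (0.81 to 0.977) for Alas2, 0.887 (0.812 to 0.97) for Bpgm, 0.835 (0.786 to 0.886) for Ubb and 0.909 (0.831 to 0.994) for Tmcc2. Over all members their ratios were higher, with log2 values of 0.36 for Alas2, 0.29 for Bpgm and 0.66 for Tmcc2. The PBS members held more cells under 50%, and the part of those cells in these ratios was not tested.

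**Figure D5:**
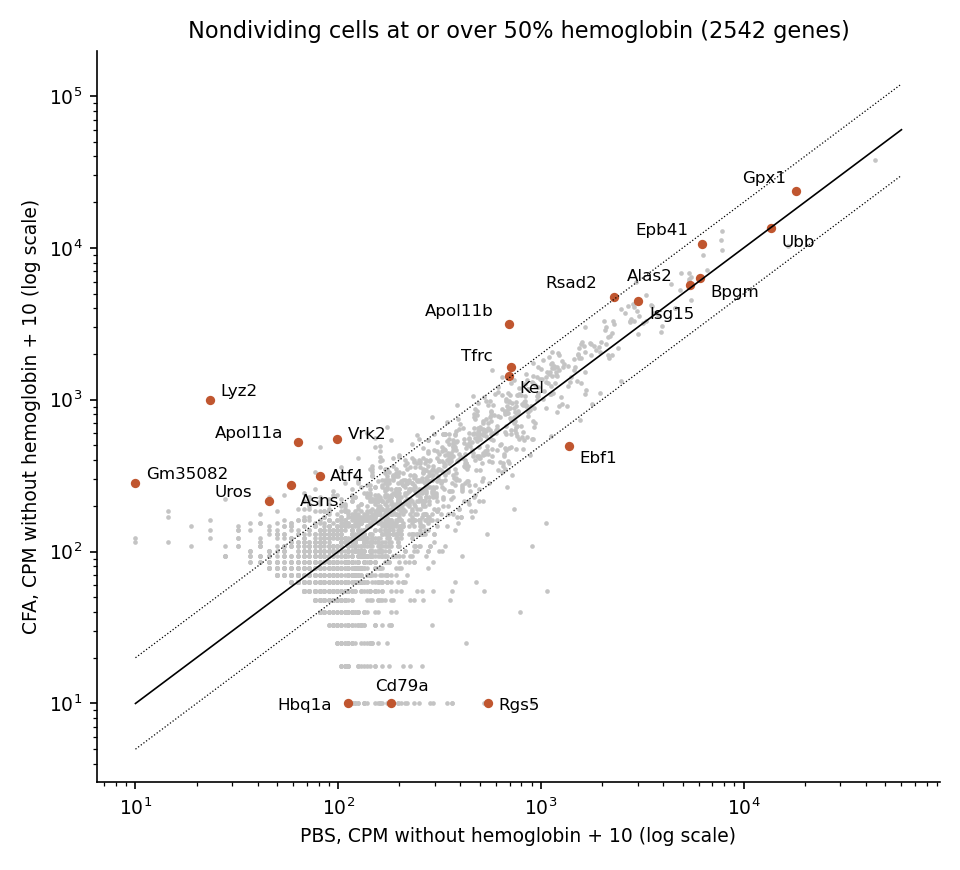
Level of each of 2542 genes in members at or over 50% hemoglobin, PBS (horizontal) against CFA (vertical), in CPM without hemoglobin plus 10 on log scales, with the line of equality and dotted lines at 2-fold. Alas2, Bpgm and Ubb lie on the line of equality, Apol11b, Apol11a, Gm35082, Tfrc and Vrk2 above the upper line, and Rgs5, Ebf1 and Hbq1a below the lower line.

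Among iron uptake and membrane genes few passed the fold between CFA and PBS members. Tfrc, which takes up transferrin-bound iron, was at 700 CPM in PBS and 1621 CPM in CFA at or over 50%, a ratio of 2.32 (1.88 to 2.86). It had 1.66 and 3.69 UMIs per cell. Slc25a37, which carries that iron into mitochondria, was at 2459 and 3953 CPM, a ratio of 1.61 (1.42 to 1.81). Tfrc was the only 1 of 6 measured iron genes past the fold, and the list median was 0.34. The membrane list had a median of 0.37, with 18 of 21 genes above 0 and 2 past the fold and higher and 1 lower, against 7.08% and 14.8% of all genes. The higher ones were Kel, a blood group protease gene, at 687 and 1424 CPM, a ratio of 2.07 (1.67 to 2.58), and Gypc, a glycophorin that anchors the skeleton, at 115 and 280 CPM, 2.43 (1.43 to 4.18). Epb41 was at 6243 and 10656 CPM, 1.71 (1.58 to 1.84), and Rhag (an ammonia channel of the Rh complex) at 700 and 1272 CPM, 1.82 (1.45 to 2.27). In the other direction Aqp1, a water channel gene also found in endothelium, was at 483 and 204.5 CPM, with 31.2% of its PBS UMIs in 1 barcode. Dividing cells at or over 50% showed Tfrc at 1228 and 2345 CPM and Kel at 1299 and 1837 CPM. Barcodes outside the gene limit had 139 and 306 CPM of Tfrc, 2.21 (1.5 to 3.25), and 157 and 161 CPM of Kel, 1.03 (0.644 to 1.61). Tfrc was thus raised in CFA on either side of the division cut, and the rise of Kel did not extend past the gene limit. At or over 60% hemoglobin Tfrc was at 885 and 1621 CPM, 1.83 (1.48 to 2.27), and Kel at 1.64 (1.32 to 2.04) and Gypc at 1.9 (1.12 to 3.27). So 0 of 6 iron and 0 of 21 membrane genes passed the fold there, with medians of 0.15 and 0.09. Of all genes 11.8% were higher there and 7.70% lower.

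Heme synthesis and transcription factors changed in few genes. In heme synthesis 2 of 12 genes were past the fold and higher at or over 50%, against 7.08% of all genes. Uros, the enzyme that closes the porphyrin ring, was at 35.4 CPM in PBS (8 UMIs) and 204 CPM in CFA (27 UMIs), a ratio of 5.77 (2.55 to 14.7), and Clpx, a mitochondrial chaperone that activates Alas2 protein, at 35.4 and 83.3 CPM, 2.35 (0.861 to 6.73). In dividing cells Uros was at 175 and 245 CPM. The remaining heme genes did not pass the fold, Alad at 186 and 318 CPM, 1.71 (1.09 to 2.69), and the list median was 0.25 against -0.03 over all genes. Over all members Alad also passed the fold, at 74.2 and 161 CPM, but with cells thinned to 400 UMIs its log2 ratio was -0.92. Among 13 transcription factors 2 were higher and 1, Nfe2l2, was lower, on 20 and 5 UMIs. Klf3 (a repressor that follows Klf1) was at 222 and 500 CPM, 2.26 (1.54 to 3.33), and Gata1 (the master erythroid factor) at 35.4 and 83.3 CPM on 8 and 11 UMIs, 2.35 (0.861 to 6.73). The intervals of Clpx and Gata1 include 1, so for them a difference was not detectable at this depth. Slc6a9, the glycine carrier that feeds heme synthesis, was the only 1 of 17 late erythroid genes past the fold, at 151 and 485 CPM, 3.22 (2.09 to 5.03), while in dividing cells it was at 343 and 369 CPM. The ubiquitin list had 0 of 13 genes past the fold and higher, with a median of 0.33. Of 16 organelle clearance genes 0 were past it, with a median of 0.30. At or over 60% the medians were -0.07 for heme synthesis, 0.08 for ubiquitin and -0.02 for organelle clearance. There Uros (4.51, 1.99 to 11.5), Clpx (2.94, 0.941 to 10.8) and Slc6a9 (2.51, 1.63 to 3.93) were past the fold, and of transcription factors 0 of 12, Klf3 at 1.84 (1.25 to 2.72). Of all genes 11.8% were higher at that limit and 7.70% lower.

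Interferon response genes were the list with the most genes past the fold over all members, 21 of 35 higher against 8.08% of all genes, with a median of 1.34. In members at or over 50% it was 8 of 26 higher and 2 lower, against 7.08% and 14.8% of all genes, with a median of 0.54, so the larger count rested in part on cells under 50%. The summed list was at 8432 CPM in PBS and 13996 CPM in CFA members at or over 50%. In comparison cells it was at 5518 and 11728 CPM, so the list was higher in CFA outside the members too. Genes of this list are named after their values were seen. For 4 of the 8, the level in members was above that of comparison cells in CFA. Rsad2, the antiviral enzyme viperin, was at 2282 and 4756 CPM, a ratio of 2.08 (1.85 to 2.35), against 73.5 and 102 CPM in comparison cells. Oasl2, an oligoadenylate synthetase-like gene, was at 142 and 553 CPM, 3.90 (2.54 to 6.11), and Igtp, an interferon-induced GTPase gene, at 44.3 and 136 CPM, 3.08 (1.35 to 7.46). Ifit1, an RNA-binding antiviral gene, was at 8.86 CPM (2 UMIs) and 136 CPM (18 UMIs), 15.4 (3.68 to 137). Gbp2, Gbp7, Iigp1 and Psmb8 were below the comparison cells in both libraries, Gbp2 with 4.43 and 106 CPM against 67.8 and 260 CPM, and Iigp1 with 51.2% of its CFA UMIs in 1 barcode. Of those genes the members' counts cannot be told apart from free RNA of other cells. Isg15, the ubiquitin-like protein that Ube2l6 conjugates, was already at 3018 CPM in PBS and at 4491 CPM in CFA, 1.49 (1.33 to 1.66), against 120 and 165 CPM in comparison cells. Isg15 and Rsad2 were thus above comparison cells in members at or over 50% of both conditions. Dividing cells at or over 50% were alike in Isg15, at 3211 and 3720 CPM, and PBS members under 50% were near the comparison cells, at 189 CPM, but CFA ones were not, at 869 CPM. At or over 60% the list had 9 of 25 genes higher and 0 lower, against 11.8% and 7.70% of all genes, with a median of 0.57. There Oasl2 was at 3.25 (2.1 to 5.15), Rsad2 under the fold at 1.7 (1.51 to 1.91) and Isg15 at 1.17 (1.05 to 1.31). Barcodes outside the gene limit had an Isg15 ratio of 1.14 (1.06 to 1.22). In dividing cells the log2 ratios of CFA to PBS were 0.95 for Rsad2, 0.21 for Isg15 and 0.78 for Oasl2.

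Apol11b and Apol11a, lipid-binding genes of the apolipoprotein L family, were raised in CFA members. Apol11b was at 682 CPM in PBS and 3128 CPM in CFA at or over 50%, a ratio of 4.58 (3.80 to 5.55). It had a UMI in 37 of 95 and 48 of 58 members, in 24.2% and 55.2% of members thinned to 400 UMIs, and in 0.971% and 0.227% of comparison cells. Apol11a was at 53.2 and 515 CPM, 9.69 (5.20 to 19.7), in 3 of 95 and 18 of 58 members. In barcodes outside the gene limit the Apol11b ratio was 4.51 (4.03 to 5.05). In members at or over 60% it was 3.88 (3.20 to 4.73), and that of Apol11a 7.56 (4.06 to 15.4). No barcode held more than 8.44% of the Apol11b UMIs in PBS or 7.02% in CFA. Dividing cells had 616 and 2191 CPM of Apol11b and 35.3 and 389 CPM of Apol11a. The rise was thus common to nondividing and dividing erythroid cells, while comparison cells were at 1.32 and 0.207 CPM of Apol11b. Apol11b (15:77633946-77643286, minus strand) and Apol11a (15:77508271-77518051, plus strand) match at 1753 bases of transcripts of 2261 and 1864, so the split of reads between them is uncertain. Apol11b was named after its values were seen.

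To show what some named genes hold before their start sites, up to 250 bases upstream were searched on both strands. The first motif was GAAA, any 2 bases and GAAA again, the core of the interferon-stimulated response element. It occurred in 2.98% of 32851 promoters, and in 17 of the 35 interferon list genes with a promoter sequence. AGATAA, an erythroid GATA motif, occurred in 9.99% of promoters. Among the heme synthesis genes it was in 1 of 14 with a sequence, and in 5 of 17 membrane genes. The 2 kinds of count differ in unit. The percentages are over promoters, which belong to 27025 genes, while a list gene was counted when any of its promoters matched. The promoters of Apol11b and Apol11a were identical over 250 bases, and that of Oasl2 held no match. Sequences are from RefSeq on build GRCm38.p6, printed 5′ to 3′ on the gene's strand with the motif, on either strand, in capitals. They are Isg15 (chr4:156200819-156201068, minus strand, 3 overlapping matches), Rsad2 (chr12:26456453-26456702, minus strand), Apol11b (chr15:77643287-77643536, minus strand) and, for AGATAA, Alas2 (chrX:150547167-150547374, plus strand, 208 bases). A match is a description of these letters only.
Isg15: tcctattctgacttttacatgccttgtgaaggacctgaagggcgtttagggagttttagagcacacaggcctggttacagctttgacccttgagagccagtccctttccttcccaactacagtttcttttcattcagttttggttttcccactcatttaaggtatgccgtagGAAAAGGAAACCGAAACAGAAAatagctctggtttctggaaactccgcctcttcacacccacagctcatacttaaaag
Rsad2: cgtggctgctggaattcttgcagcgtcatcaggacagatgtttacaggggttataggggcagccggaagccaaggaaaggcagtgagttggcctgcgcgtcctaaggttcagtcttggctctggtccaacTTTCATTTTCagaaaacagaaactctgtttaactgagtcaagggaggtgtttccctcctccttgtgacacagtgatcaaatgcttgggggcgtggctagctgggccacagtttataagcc
Apol11b: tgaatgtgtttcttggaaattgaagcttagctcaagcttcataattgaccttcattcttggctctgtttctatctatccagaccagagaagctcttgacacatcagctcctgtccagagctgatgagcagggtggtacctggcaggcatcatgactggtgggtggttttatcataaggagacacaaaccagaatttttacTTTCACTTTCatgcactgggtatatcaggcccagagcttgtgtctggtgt
Alas2: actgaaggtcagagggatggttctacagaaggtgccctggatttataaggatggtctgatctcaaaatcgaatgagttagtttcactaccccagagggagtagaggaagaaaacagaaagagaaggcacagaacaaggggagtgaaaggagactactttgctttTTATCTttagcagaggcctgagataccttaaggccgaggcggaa

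Genes of the integrated stress response, which slows translation when amino acids or heme run short, were also raised at or over 50%, with 5 of 8 measured genes past the fold against 7.08% of all genes, 0 lower and a median of 1.48. The genes named from this list were chosen after their values were seen. Asns, the asparagine synthetase gene, was at 48.7 and 265 CPM, a ratio of 5.44 (2.70 to 11.9), in 10 of 95 and 16 of 58 cells. Atf4, the transcription factor of the response, was at 70.9 and 303 CPM, 4.27 (2.34 to 8.17), and its target Ddit3 at 44.3 and 151 CPM, 3.42 (1.53 to 8.18). The other 2 were Cebpb (a transcription factor gene), at 17.7 and 83.3 CPM but under the 117 and 650 CPM of comparison cells, and Eif2ak2 (an RNA-activated kinase gene), at 48.7 and 144 CPM, 2.95 (1.34 to 6.87), with 51.3 and 66.3 CPM in comparison cells. Comparison cells moved the other way in Asns, Atf4 and Ddit3, with 17.7 and 11 CPM of Asns, 131 and 94.6 CPM of Atf4 and 22.8 and 17 CPM of Ddit3. Dividing cells at or over 50% also had more in CFA, 432 against 78 CPM of Asns and 182 against 32.4 CPM of Ddit3. Outside the gene limit the CFA to PBS ratios were 4.69 (2.89 to 7.82) for Asns and 3.24 (2.13 to 5) for Atf4. In members at or over 60% 4 of 7 genes were higher, against 11.8% of all genes, with a median of 1.47. The ratios there were 4.67 (2.26 to 10.6) for Asns and 4.11 (2.15 to 8.37) for Atf4. Over all members the list was weaker, with 4 of 10 higher and 1, Nupr1, lower, against 8.08% and 10.2% of all genes. The median there was 0.79, and Atf4 was at 130 and 168 CPM. The rise of Asns, Atf4 and Ddit3 was thus found in erythroid cells and opposite in sign to that of comparison cells. Immediate early and heat shock genes had a median of -0.42 over 20 genes at or over 50%, with 1 higher and 3 lower. Antioxidant genes had 0.18 over 14 genes, with 2 higher and 2 lower. Both lie near the 7.08% and 14.8% of all genes. Glycolysis genes had 0.58 over all members and -0.12 at or over 50%. At or over 60% the medians of these 3 lists changed sign, to 0.11, -0.11 and 0.51. There 3 of 17, 2 of 15 and 0 of 5 genes were higher and 0, 1 and 0 lower, against 11.8% and 7.70% of all genes.

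Beyond the lists, genes were ranked by the CFA to PBS ratio among those whose level was not under that of comparison cells. The highest at or over 50% was Gm35082, a long intergenic noncoding RNA gene (7:100675088-100677760, plus strand), with 0 UMIs in PBS and 36 in 21 of 58 CFA members. At 273 CPM it was at least 20.5-fold higher than a floor of 3 counts, and comparison cells had 0.183 and 6.27 CPM. Dividing cells at or over 50% had 0 and 184 CPM. Further down were Vrk2 (rank 7), a kinase gene, at 88.6 and 538 CPM, 6.07 (3.65 to 10.5), and Acyp2 (rank 9), an acylphosphatase gene, at 35.4 and 220 CPM, 6.2 (2.76 to 15.7). Between them and Gm35082 came genes such as Calca, with 0 UMIs in PBS and all 14 in CFA from 1 barcode. Vrk2 and Acyp2 were also higher in CFA dividing cells, with log2 ratios of 2.32 and 3.29. Gm35082, Apol11a, Vrk2 and Acyp2 were thus higher in the CFA library in both nondividing and dividing erythroid cells, and Gm35082 in comparison cells too. Vrk2 (11:26471322-26593999, minus strand) and Acyp2 (11:30505991-30649587, minus strand) lie on the chromosome of Hba-a1 and Hba-a2, whose split differed between the whole libraries. For these genes as well, pooled mice, injection and library cannot be told apart. Among the lowest at or over 50% were Rgs5 (a mural cell gene), with 541 CPM in PBS and 0 in CFA, and Cd79a (a B cell gene), with 173 CPM and 0. Of the Rgs5 UMIs 59.8% came from 1 PBS barcode. The fibroblast, osteoblast, B cell, mural, and T and NK lists given above were also lower in CFA there. The neutrophil list was higher, and so was the macrophage list through Lyz2. At or over 60% T and NK markers were at 5.67 CPM in PBS and 45.4 CPM in CFA, on 1 and 6 UMIs, too few to give a direction. B cell markers were at 772 and 515 CPM there and endothelial markers at 488 and 1325 CPM. Fibroblast, osteoblast and mural markers were lower in CFA at that limit too.

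Single barcodes carried much of the result in these rankings. At or over 50% hemoglobin 7 named genes had at least 50% of their UMIs in the higher library from 1 barcode. In the ranking over all members 10 of the 20 named genes did, and 2 had at least 90%. Ifit3 had 98.7% from 1 member, and without the highest barcode of each library its log2 ratio went from 3.51 to -0.66. Cfb (56.4%), F10 (74.1%) and Pstpip2 (71.1%) were like it, and Cd86 was higher over all members but lower at or over 50%, on 5 and 1 UMIs. S100a8 and S100a9 were at the low end, at -4.31 and -4.24, with 81.8% of the PBS S100a8 UMIs in 1 member, and both changed sign at or over 50%. Fth1 was at 4171 and 18042 CPM over all members, a log2 ratio of 2.11, which was 0.97 without the highest barcodes and 0.35 at or over 50%. Gm35082 and Apol11a were the raised genes of this ranking that also led at or over 50% with no barcode at 50% or more in CFA. The other genes at the low end were Rgs5, Tnfaip6, Meg3, Pcolce2, Opcml, Lsamp, Lgals7 and Slc4a4, and H2-Q7, a major histocompatibility gene, closed the high end at 2.92.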

How the data were processed

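The count values are UMI counts per gene and barcode that the authors made with Cell Ranger 7.0.1 on mm10 (GRCm38), with barcodes filtered by that program, and deposited without normalization. Of 32285 gene IDs, 38 symbols on several IDs were summed, leaving 32245 symbols. Levels are sums of UMIs over cells, as CPM with the 4 adult globin genes left out of the total. Members and gene lists were chosen with earlier results of these data known. The 33 lists hold 428 genes, all 428 matched, and 13 of them mark other cells. Named genes are those of the marker, globin, heme, iron, membrane, maturation and transcription factor lists, plus the 10 highest and 10 lowest ratios of each comparison among genes with a mean of at least 50 CPM, without mitochondrial, ribosomal protein, hemoglobin and immunoglobulin genes and the genes of the rule. For CFA against PBS, genes below comparison cells in the higher library were left out too. Against dividing cells at or over 50% hemoglobin the higher genes were ranked with and without those below comparison cells in either library. Results of some genes that meet these rules are not reported here. Interferon, stress response and endothelial genes were chosen after their values were seen. No doublet caller was run, and cells with an other-cell list at 5% or more were left out as an alternative. Scripts were tested on simulated data. Tools were Python 3.11.15, numpy 2.4.6, scipy 1.17.1, pandas 2.3.3 and matplotlib 3.10.9.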

Additional observations from a re-analysis of the deposited data

How the results depend on the processing

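Each condition is 1 library of pooled mice, so treatment, mice and library cannot be told apart, and free RNA and doublets were not removed. The lower share of members in CFA did not hold among erythroid barcodes, where the ratio was 1.00376, nor among them with no gene limit (0.987532) or at or over 50% hemoglobin (1.2165). Genes higher in CFA, 289 in the main setting, were 506 with a 20 CPM filter, 187 with 100 CPM, 114 with all UMIs including hemoglobin, 164 by the mean over cells (296 lower) and 180 at or over 50% hemoglobin. Genes lower in CFA, 363 in the main setting, were 773, 173 and 156 under the first 3 of these and 178 at or over 60%. Against dividing cells, the 458 higher genes became 37 among cells with 1000 to 4000 UMIs outside hemoglobin, 99 with all UMIs, 703 with 20 CPM, 253 with 100 CPM and 252 with both sets at or over 50%, and the 455 lower genes became 130, 270 with 100 CPM and 295 with both sets at or over 50%. CFA to PBS log2 ratios changed sign or went to 0 for Cfb (0 thinned to 400 UMIs), Cd86 (-0.87 at or over 50%), Ifit3 (-0.10 at or over 50%, -0.66 without its highest barcode), S100a8 (0.85 without cells holding other-cell markers, 0.91 at or over 50%), S100a9 (0.66 and 0.68 likewise), Alad (-0.92 thinned) and Iigp1 (-0.0101 thinned). The cause was not tested. Leaving out the highest barcode and holding dividing cells, lists and rankings to 50%, the limit of 60%, dropping the gene limit and dividing members at or over 50% by other barcodes were chosen after seeing the data.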

Other observations

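Malat1, a nuclear noncoding RNA, took a median 4.35% of UMIs outside hemoglobin in PBS members at or over 50% hemoglobin and 3.94% in CFA, against 1.48% and 1.97% in members under 50%. Mitochondrial transcripts went the other way, with 1.10% and 1.09% against 2.41% and 2.25%. These are shares of totals that differ between the groups. In UMIs per cell, Malat1 was lower at or over 50%, with 106 against 232 in PBS and 86.7 against 492 in CFA.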
